A study of Homo sapiens with 6 samples.

Results

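UCA1 and 8 other long noncoding RNAs that are widely studied in cancer (MALAT1, NEAT1, H19, HOTAIR, GAS5, PVT1, SNHG1 and MEG3) were followed through 6 RNA-seq libraries of bladder cancer cells. They were taken from the deposited table by gene name, and all 9 had a row among its 50869 rows. The libraries came from UM-UC-3 and 5637, both established human bladder cancer cell lines, the first grown in DMEM and the second in RPMI 1640. Each line had been given a lentivirus and selected with puromycin, so that it stably expressed the control hairpin sh-NC or either of the hairpins sh-LNMAT1#1 and sh-LNMAT1#2, which target the long noncoding RNA LNMAT1 (listed as LINC01296). There was 1 library for each construct in each line, so the groups have no replicates of their own, and a test in which both hairpins stand for 1 condition measures the spread between hairpins. Levels are in FPKM, fragments scaled to the length of the gene and the depth of the library, which makes genes of different length comparable. Below, 3 levels of a line follow the order sh-NC, then sh-LNMAT1#1, then sh-LNMAT1#2, and 2 levels or differences are those of hairpin #1 and then hairpin #2 against LNMAT1.

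Long noncoding RNAs are transcripts without a long reading frame, and those chosen here work, or are made, in different ways. UCA1 (urothelial cancer associated 1) was first described in bladder carcinoma. NEAT1 is the RNA on which nuclear bodies called paraspeckles are built, and MALAT1 lies in nuclear speckles, which store splicing factors. GAS5 and SNHG1 are host genes, whose introns carry small nucleolar RNAs (snoRNAs), and PVT1 is the neighbour of the oncogene MYC. HOTAIR is made from the HOXC cluster and is known for its link to the chromatin complexes PRC2 and LSD1, while H19 and MEG3 come from imprinted loci.

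The libraries held 19375000 to 24707000 fragments, as read from the step that 1 fragment makes in the FPKM of single-exon genes. The library labelled 5637 sh-NC stood apart from the other libraries of its line. Over the 12717 genes whose mean reached 1 FPKM, the Pearson correlation across genes of its log2 levels was 0.922 to 0.985 with the 3 UM-UC-3 libraries, and 0.617 and 0.622 with 5637 sh-LNMAT1#1 and 5637 sh-LNMAT1#2, which correlated with each other at 0.975. Of 10 epithelial and urothelial markers, 2, 3 and 2 reached 1 FPKM in the UM-UC-3 libraries and 3 in the library labelled 5637 sh-NC, against 10 in both 5637 sh-LNMAT1 libraries. The targeted LINC01296 was at 14.2, 6.20 and 6.70 FPKM in UM-UC-3 and at 11.7, 4.70 and 2.14 FPKM in the libraries labelled 5637, and it shares sequence with the DUXAP copies, which makes its level uncertain. Every comparison that uses the library labelled 5637 sh-NC is therefore given apart from those that do not.

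UCA1 (ENSG00000214049) lies on the plus strand of chromosome 19 of GRCh38, from 15828961 to 15836320. It had the widest range of levels of all 9 RNAs. In UM-UC-3, UCA1 was at 0.0511 FPKM under the control hairpin, at 0.0142 FPKM under hairpin #1 and at 0.0413 FPKM under hairpin #2. The library labelled 5637 sh-NC held 0.0422 FPKM, within the UM-UC-3 range, whereas 5637 sh-LNMAT1#1 reached 146 FPKM and 5637 sh-LNMAT1#2 reached 207 FPKM. UCA1 thus fell into a low set of 4 libraries and a high set of 2, and in the high set it was the most abundant of the 9 RNAs, at rank 129 and 93 among all rows. At a length of 3168 bases, at which all 6 values come out whole, the low levels are 4, 1, 3 and 3 fragments and the high ones 9628 and 12707 fragments. The 5637 sh-LNMAT1#1 level was 2859-fold that of UM-UC-3 sh-NC (95% interval 1116 to 10493, from counting error only) and 3461-fold that of the library labelled 5637 sh-NC (1184 to 16788). The intervals are wide because 3 or 4 fragments set the lower level. UCA1 passed the filter of a mean of 1 FPKM through both 5637 sh-LNMAT1 libraries alone.

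**Figure D1:**
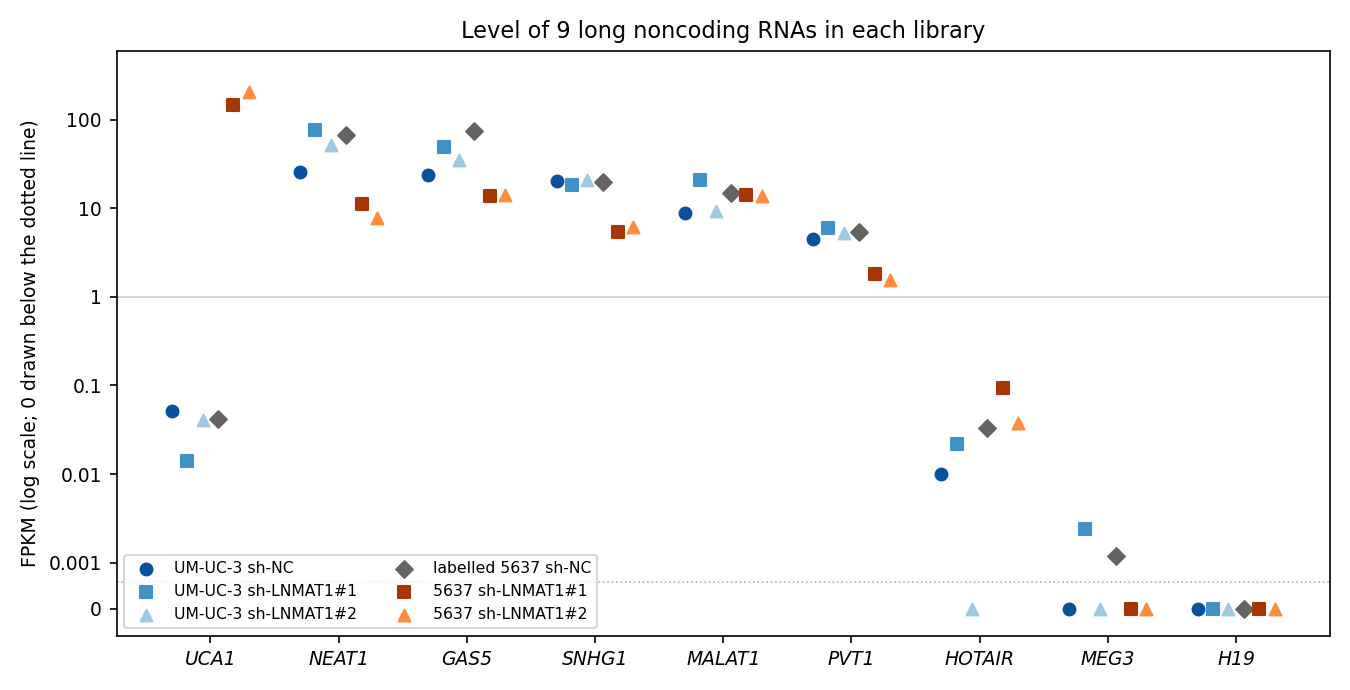
Level in FPKM (log axis, with 0 drawn below the dotted line) of the 9 long noncoding RNAs in each of the 6 libraries, 1 point per library. UCA1 spans 0.0142 to 207 FPKM, with the library labelled 5637 sh-NC (grey diamond) among the UM-UC-3 points, and H19 is at 0 throughout.

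NEAT1 (ENSG00000245532, 11:65422774-65445540, plus strand) and MALAT1 (ENSG00000251562, 11:65497762-65506516, plus strand) are neighbours on chromosome 11. MALAT1 and the long form of NEAT1 end by a cut in place of the usual poly(A) tail, and the end is kept by a triple helix of uridine-rich and adenine-rich stretches. That stretch is shown because the libraries were made with an mRNA kit, for which the ends of these RNAs matter if it selects poly(A) tails. The paper's methods, given for bladder cancer and normal samples, name a removal of rRNA before mRNA was purified. Which step these libraries had is not settled here. The capitals mark the 3 blocks of at least 8 bases that the last 500 bases of MALAT1-202 and the last 100 of NEAT1-202 share in the same order, TTTCTTTT, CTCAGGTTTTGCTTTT and AAAAAGCAAAA.
MALAT1-202, bases 8270 to 8355 of 8708: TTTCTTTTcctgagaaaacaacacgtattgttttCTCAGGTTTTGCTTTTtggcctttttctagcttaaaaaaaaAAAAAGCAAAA
NEAT1-202, bases 22656 to 22743 of 22743: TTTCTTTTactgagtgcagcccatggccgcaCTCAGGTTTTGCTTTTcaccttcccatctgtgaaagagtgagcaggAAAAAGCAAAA
In this order on the transcript strand, with 10 to 60 bases between neighbouring blocks, the letters occurred in 2 of 206534 GENCODE transcripts (0.000968%), the pair shown. The blocks were taken from this pair, so its own match was fixed in advance. The search shows only that no other transcript there holds these exact letters, not how rare such a triple helix is. NEAT1 was at 25.6, 75.7 and 51.9 FPKM in UM-UC-3. The library labelled 5637 sh-NC had 67.0 FPKM, and the 5637 hairpin libraries had 11.04 and 7.77 FPKM, the lowest of the 6. Every UM-UC-3 level of NEAT1 was above both 5637 sh-LNMAT1 levels. How many of all genes separate in this way was not counted. MALAT1 had 8.88, 21.0 and 9.41 FPKM in UM-UC-3, 14.8 FPKM in the library labelled 5637 sh-NC, then 14.3 and 13.8 FPKM under the hairpins in 5637. The lines overlapped for MALAT1, whose lowest and highest levels were both in UM-UC-3. How much of either RNA the kit captured was not tested.

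GAS5 (ENSG00000234741, 1:173863900-173868882, minus strand) and SNHG1 (ENSG00000255717, 11:62851988-62855914, minus strand) carry snoRNAs in their introns, and their spliced RNAs are known to be turned over in the cytoplasm. Such host genes, like ribosomal protein genes, often start with a run of pyrimidines, by which growth signals control translation. The starts of GAS5, of SNHG1 and of the 4 other host genes with the largest difference between lines are shown for this feature, each from the lowest-numbered transcript that has it, with the run in capitals.
GAS5-210: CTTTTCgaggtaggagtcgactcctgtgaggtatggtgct
SNHG1-203: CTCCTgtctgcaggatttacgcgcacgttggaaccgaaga
SNHG4-201: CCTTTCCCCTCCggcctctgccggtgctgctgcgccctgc
SNHG5-202: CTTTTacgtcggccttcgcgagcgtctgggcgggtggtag
ZFAS1-201: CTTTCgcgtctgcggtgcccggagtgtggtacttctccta
SNHG3-203: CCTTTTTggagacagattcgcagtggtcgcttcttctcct
A start of C and at least 4 further pyrimidines was found in 6 of 29 GAS5 transcripts and in 1 of 25 SNHG1 transcripts. Over 24 snoRNA host genes it was found in 31 of 241 transcripts (12.9%), against 4975 of 206534 (2.41%) of all GENCODE transcripts. The match says what the annotated letters are, and which start these cells used was not tested. GAS5 was at 23.8, 49.5 and 35.4 FPKM in UM-UC-3, at 73.7 FPKM in the library labelled 5637 sh-NC, then at 13.6 and 14.0 FPKM in the 5637 hairpin libraries. It was the only one of the 6 RNAs over 1 FPKM for which the library labelled 5637 sh-NC lay outside the UM-UC-3 range, and it lay above it. SNHG1 was even in UM-UC-3, at 20.5, 18.1 and 21.1 FPKM, had 19.6 FPKM in the library labelled 5637 sh-NC, then 5.37 and 6.12 FPKM in the 5637 hairpin libraries.

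PVT1 (ENSG00000249859) covers chromosome 8 from 127794533 to 128101253 on the plus strand, next to MYC. PVT1 was at 4.54, 5.93 and 5.25 FPKM in UM-UC-3, below every other tested RNA there but UCA1. It had 5.45 FPKM in the library labelled 5637 sh-NC, while the 5637 hairpin libraries had 1.82 and 1.56 FPKM.

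HOTAIR, MEG3 and H19 stayed under the filter of 1 FPKM and were not tested. HOTAIR (ENSG00000228630, 12:53962308-53974956, minus strand) was at 0.00997, 0.0221 and 0 FPKM in UM-UC-3, at 0.0329 FPKM in the library labelled 5637 sh-NC, then at 0.0948 and 0.0382 FPKM in the 5637 hairpin libraries. These are 0 to 8 fragments at a length of 4058 bases, at which all values come out whole. At the 2602 bases of its exons in GENCODE they are about 0 to 5 fragments. Either is too few for an order of the libraries. MEG3 (ENSG00000214548, 14:100779410-100861031, plus strand) was at 0.00238 FPKM under hairpin #1 in UM-UC-3, the library labelled 5637 sh-NC had 0.00118 FPKM, and MEG3 was listed at 0 in the other 4 libraries. H19 (ENSG00000130600, 11:1995163-2001470, minus strand), an abundant RNA of fetal tissues, was listed at 0 in all 6 libraries, and a count of 0 allows up to 3 fragments in each. Whether the 0 reflects the cells or how reads were counted was not tested, since the counting program is not given in the sources used here.

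The lines were then compared within the 4 sh-LNMAT1 libraries, which leaves out both controls. UCA1 was higher in 5637 than in UM-UC-3, NEAT1, SNHG1, GAS5 and PVT1 were lower, and MALAT1 did not pass the test. On the log2(FPKM + 0.5) scale, which understates changes of low genes, the difference of UCA1 was 8.37 (SE 0.24, adjusted p = 0.000141, limma). It was -2.69 (SE 0.29, adjusted p = 0.00191) for NEAT1 and -1.69 (SE 0.20, adjusted p = 0.003) for SNHG1. For GAS5 it was -1.57 (SE 0.23, adjusted p = 0.00604), and for PVT1 -1.48 (SE 0.21, adjusted p = 0.00476). MALAT1 differed by -0.01 (SE 0.39, adjusted p = 0.988), a standard error set by the gap between its UM-UC-3 hairpin libraries, where sh-LNMAT1#2 was lower than sh-LNMAT1#1 by a log2 difference of -1.12. Thus 1 RNA was higher and 4 were lower of 6 tested, where 37.6% of all 12717 genes were called, 18.5% higher and 19.1% lower. UCA1 had entered the test only through the 5637 sh-LNMAT1 libraries, in which it was high. Its call here, and those below against the library labelled 5637 sh-NC, are therefore not independent of the filter. Cell line, culture medium and the response of each line to the hairpins cannot be told apart here. In bulk RNA, fewer cells of a type and less RNA per cell cannot be told apart either. GAS5 in the left-out UM-UC-3 sh-NC was 1.75 and 1.7-fold the 5637 hairpin levels, against 3.64 and 2.52-fold for libraries of the same hairpin. For NEAT1 it was 2.32 and 3.29-fold against 6.85 and 6.68-fold, and for PVT1 2.5 and 2.91-fold against 3.26 and 3.36-fold. For SNHG1 it was 3.82 and 3.35-fold against 3.37 and 3.45-fold. The 10 epithelial markers summed to 25.8 and 32.3 FPKM in the UM-UC-3 hairpin libraries and to 735 and 981 FPKM in those of 5637. The 6 mesenchymal markers summed to 183 and 228 FPKM against 122 and 119 FPKM, but they did not move together. VIM was at 116 and 155 FPKM in UM-UC-3 against 3.85 and 4.14 FPKM in 5637, SPARC at 25.8 and 42.4 FPKM against 0.0722 and 0.0634 FPKM, and ZEB1 at 12.7 and 8.67 FPKM against 0.0264 and 0.00774 FPKM. FN1 went the other way, with 2.27 and 1.07 FPKM against 109.6 and 102.4 FPKM, and made up most of the 5637 sums. The part of the epithelial and mesenchymal markers in these differences was not tested. Immune markers (5 genes) summed to 29.4 and 13.0 FPKM in UM-UC-3 and 1.41 and 1.23 FPKM in 5637. CD68 was at 29.2 and 13.0 FPKM against 0.749 and 0.826 FPKM, and CD3E was at 0 throughout. The 5 endothelial and fibroblast markers summed to at most 7.98 FPKM. Most of that was COL1A1, at 0.0899 and 0.296 FPKM in UM-UC-3 against 7.92 and 6.37 FPKM in 5637. Without 5637 sh-LNMAT1#1 the adjusted p rose to 0.0977 for GAS5, 0.0983 for PVT1 and 0.0705 for SNHG1, and without 5637 sh-LNMAT1#2 to 0.0889, 0.111 and 0.0579, each with 1 residual degree of freedom. With no filter on low genes, NEAT1 (adjusted p = 0.0622) and GAS5 (adjusted p = 0.0766) missed the threshold.

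**Figure D2:**
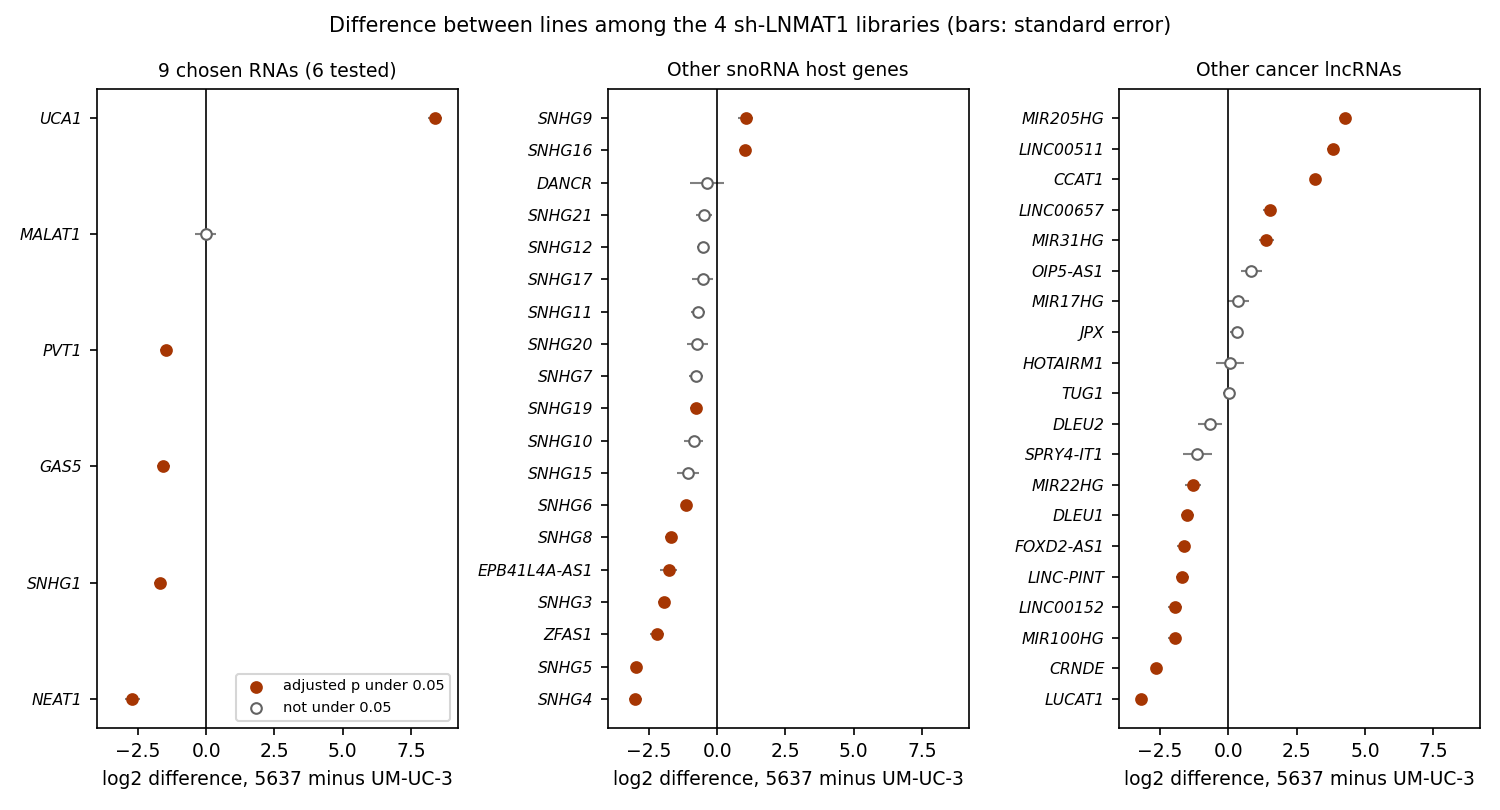
Difference in log2(FPKM + 0.5) between 5637 and UM-UC-3 among the 4 sh-LNMAT1 libraries (x axis), with the standard error as a bar, for the tested RNAs (left), 19 other snoRNA host genes (middle) and 20 other cancer long noncoding RNAs (right). UCA1, which passed the filter only through the 5637 hairpin libraries, lies farthest to the right at 8.37. Of the 19 host genes 8 are called lower and 2 higher, where 19.1% of all genes were called lower and 18.5% higher.

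The UM-UC-3 libraries ask what the hairpins against LNMAT1 did to these RNAs with a control of the same line. NEAT1, at 25.6 FPKM in the control, was above it under either hairpin, by log2 differences of 1.54 and 1.01. GAS5 was above its control by 1.04 and 0.56, MALAT1 by 1.20 and 0.08, and PVT1 by 0.35 and 0.19. SNHG1 differed from its control by -0.17 and 0.04, and UCA1 by -0.10 and -0.03 at 1 to 4 fragments. No RNA passed the test, nor did any other gene (0% called, with 769 of 12717 at an unadjusted p under 0.05). The mean change of NEAT1 was 1.28 (SE 0.35, adjusted p = 0.798, limma) and that of GAS5 was 0.80 (SE 0.28, adjusted p = 0.816). The changes of MALAT1 (0.64, adjusted p = 0.85), PVT1 (0.27, adjusted p = 0.873), UCA1 (-0.06, adjusted p = 0.988) and SNHG1 (-0.07, adjusted p = 0.983) were within the spread. With 1 control library, these values do not show that the RNAs stayed level. The hairpin libraries were unequal over all genes too. Of all genes, 10.2% lay beyond 2-fold of the control under hairpin #1 and 3.19% under hairpin #2. UM-UC-3 sh-LNMAT1#1 correlated at 0.985 with the library labelled 5637 sh-NC and at 0.923 with UM-UC-3 sh-NC. That labelled library also lay above UM-UC-3 sh-NC for NEAT1 (67.0 FPKM), GAS5 (73.7 FPKM), MALAT1 (14.8 FPKM) and PVT1 (5.45 FPKM). It did not for SNHG1 and UCA1. Whether the changes under hairpin #1 come from the hairpin was not tested.

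**Figure D3:**
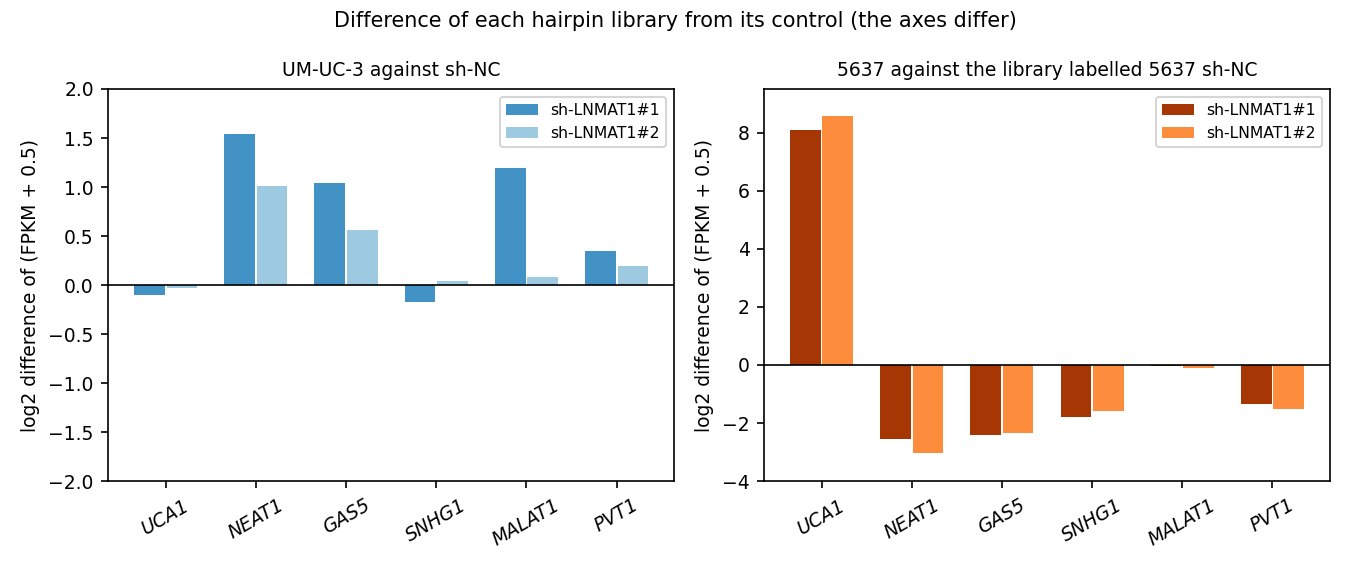
Difference in log2(FPKM + 0.5) of each sh-LNMAT1 library from UM-UC-3 sh-NC (left) and from the library labelled 5637 sh-NC (right) for 6 RNAs, 1 bar per library, with different y axes. NEAT1 and GAS5 lie above the control under either hairpin in UM-UC-3 and below the labelled control under either in 5637.

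Against the library labelled 5637 sh-NC, UCA1 was higher in both 5637 sh-LNMAT1 libraries by log2 differences of 8.08 and 8.58, and NEAT1, GAS5, SNHG1 and PVT1 were lower. NEAT1 differed by -2.55 and -3.03, GAS5 by -2.39 and -2.35, SNHG1 by -1.78 and -1.60, and PVT1 by -1.36 and -1.53. MALAT1 differed by -0.05 and -0.10. These 5 of 6 RNAs were called (adjusted p from 0.000502 for UCA1 to 0.0132 for PVT1, limma), where 31% of all genes were (15.9% higher and 15.1% lower), and MALAT1 was not (adjusted p = 0.919). The library used as control correlated with UM-UC-3 sh-LNMAT1#1 at 0.985, so a change by the hairpins and a difference between lines cannot be told apart in this comparison. The calls are to be set beside the differences between lines above, which do not use that library and share the 5637 sh-LNMAT1 libraries with it. Without 5637 sh-LNMAT1#1, the adjusted p was 0.0506 for GAS5, 0.149 for PVT1 and 0.0835 for SNHG1. Without 5637 sh-LNMAT1#2 it was 0.167 for PVT1 and 0.0674 for SNHG1, and with no filter on low genes it was 0.0808 for NEAT1 and 0.0567 for GAS5. The difference between the changes in 5637 and in UM-UC-3 rests on the same library, and 1 of the 6 RNAs was called higher and 4 lower in it, where 9.99% of all genes were called higher and 8.79% lower, from 8.39 for UCA1 to -4.06 for NEAT1.

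Pooled over both lines with the line as a covariate, no RNA differed between the sh-LNMAT1 and the sh-NC libraries, and no gene was called (0%, with 811 of 12717 at an unadjusted p under 0.05). UCA1 had a mean change of 4.13 with an SE of 1.74 (adjusted p = 0.569, limma), since it was high in the sh-LNMAT1 libraries of 5637 only. Without the library labelled 5637 sh-NC the pooled change was -0.06 for UCA1, 1.28 for NEAT1, 0.80 for GAS5 and 0.27 for PVT1, which turned the direction of all 4. Without UM-UC-3 sh-NC, which leaves the library labelled 5637 sh-NC as the sole control, 3947 genes were called, with UCA1 at 8.33 (adjusted p = 0.000486), NEAT1 at -2.79 (adjusted p = 0.00441), GAS5 at -2.37 (adjusted p = 0.00383), SNHG1 at -1.69 (adjusted p = 0.00738) and PVT1 at -1.45 (adjusted p = 0.0129).

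Beside these RNAs, 22 other snoRNA host genes were looked up, and 19 passed the filter. Between the lines, 8 of the 19 were lower in 5637 and 2 were higher, where 19.1% of all genes were lower and 18.5% higher, with a median difference of -0.78 against -0.05 over all 12717 genes. The lowest 4 were SNHG4 (-2.99, adjusted p = 0.000772), SNHG5 (-2.96, adjusted p = 0.000392), ZFAS1 (-2.21, adjusted p = 0.00245) and SNHG3 (-1.96, adjusted p = 0.00128). SNHG5 had 10.3 and 10.9 FPKM in the UM-UC-3 hairpin libraries and 0.915 and 0.943 FPKM in those of 5637, and ZFAS1 had 145 and 99.5 FPKM against 27.5 and 23.8 FPKM. SNHG16 (1.00, adjusted p = 0.0154) and SNHG9 (1.04, adjusted p = 0.0336) went the other way. With the hairpins in UM-UC-3 none of the 19 was called, where 0% of all 12717 genes were, and the median change of the 19 was 0.03. The largest changes there were those of ZFAS1 (1.00, adjusted p = 0.816), EPB41L4A-AS1 (0.75, adjusted p = 0.844), SNHG16 (-0.62, adjusted p = 0.821) and SNHG20 (-0.56, adjusted p = 0.858).

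Of 41 other long noncoding RNAs studied in cancer, 39 had a row and 20 passed the filter. Between the lines 5 of the 20 were higher in 5637 and 8 were lower, where 18.5% of all genes were higher and 19.1% lower, with a median of -0.32. The largest differences were those of MIR205HG (4.28, adjusted p = 0.000264), the host gene of miR-205, of LINC00511 (3.83, adjusted p = 0.000252), of CCAT1 (3.19, adjusted p = 0.000383) and of LUCAT1 (-3.18, adjusted p = 0.000355). MIR205HG followed UCA1 in its form, at 8.01 and 10.8 FPKM in the 5637 hairpin libraries, and at 0.0114 FPKM or less in the other 4 libraries. CCAT1 had 4.08 and 4.04 FPKM in the 5637 hairpin libraries, 0 in UM-UC-3 and 0.0209 FPKM in the library labelled 5637 sh-NC. LINC00511 had 7.52 and 8.47 FPKM in the 5637 hairpin libraries and 0.1194 FPKM or less in the other 4 libraries. The fitted sizes of such genes depend on the pseudocount, and like UCA1 they passed the filter through the 5637 hairpin libraries alone. Their calls, and the count of genes called higher, are therefore not independent of the filter. LUCAT1 had 12.7, 15.4 and 15.4 FPKM in UM-UC-3, and 1.38 and 1.13 FPKM in the 5637 hairpin libraries. None of the 20 was called with the hairpins in UM-UC-3, where 0% of all genes were. HOTAIRM1 (0.93, adjusted p = 0.847), DLEU2 (-0.77, adjusted p = 0.847), CRNDE (0.56, adjusted p = 0.838) and TUG1 (0.40, adjusted p = 0.844) had the largest changes there.

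The proteins that work with NEAT1, MALAT1 and HOTAIR were all over the filter, and their calls are read against the 37.6% of all genes called between the lines. Of 12 paraspeckle proteins 1 was higher in 5637 and none was lower, with a median difference of 0.13. That gene was SMARCA4, a chromatin remodelling ATPase (2.46, adjusted p = 0.000636), whereas the core proteins NONO (0.53, adjusted p = 0.0772) and SFPQ (0.20, adjusted p = 0.448) were not called while NEAT1 was lower. Of 10 nuclear speckle proteins, SON (1.14, adjusted p = 0.00758), SRSF3 (1.07, adjusted p = 0.0367) and SRSF2 (1.04, adjusted p = 0.0119) were higher and SF3B1 (-0.75, adjusted p = 0.0277) was lower. Among 10 subunits of PRC2 and LSD1 complexes, JARID2 (1.73, adjusted p = 0.0123), KDM1A (1.66, adjusted p = 0.00271), which is LSD1 itself, and EED (0.71, adjusted p = 0.0465) were higher. AEBP2 (-1.05, adjusted p = 0.0443) was lower. HOTAIR itself had at most 8 fragments per library. At 4 of 10 each, the speckle and the PRC2 and LSD1 lists were near the share of all genes. No gene of these 3 lists was called with the hairpins in UM-UC-3, where 0% of all genes were. The largest changes there were those of RBM14 (-0.97), SRSF3 (-1.06) and EZH2 (-0.60), with adjusted p from 0.816 to 0.838.

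Genes beside the RNAs did not share their pattern throughout. Their calls between the lines are read against 18.5% of all genes called higher and 19.1% called lower. TPM4, a tropomyosin gene and the only tested one of 6 neighbours of UCA1, was at 11.7, 40.2 and 49.2 FPKM in UM-UC-3 (mean change 1.88, adjusted p = 0.691) and at 40.7 and 59.6 FPKM in the 5637 hairpin libraries (difference between lines 0.15, adjusted p = 0.681). None of 4 tested neighbours of MALAT1 and NEAT1 and none of 5 of SNHG1 differed between the lines. MYC, beside PVT1, had 35.9, 70.2 and 137 FPKM in UM-UC-3, 39.4 FPKM in the library labelled 5637 sh-NC, then 25.0 and 43.0 FPKM with the hairpins in 5637. The difference of MYC between lines was -1.56 (adjusted p = 0.0349), and its change in UM-UC-3 was 1.44 (adjusted p = 0.816). At 35.9 FPKM, MYC in UM-UC-3 sh-NC lay between its levels in the 5637 hairpin libraries. PVT1, with a difference of -1.48, was above both of its 5637 hairpin levels in every UM-UC-3 library. Beside H19, which was at 0, the 3 tested of 6 genes were higher in 5637, namely TNNT3 (3.75, adjusted p = 0.0012), which at 0.0254 FPKM or less in the other 4 libraries passed the filter through the 5637 hairpin libraries alone, MRPL23 (1.52, adjusted p = 0.00578) and the imprinted growth factor gene IGF2 (2.60, adjusted p = 0.00406), which had 1.48 and 2.04 FPKM in the UM-UC-3 hairpin libraries and 18.0 and 9.58 FPKM in those of 5637. Beside HOTAIR, the homeobox genes HOXC4 (-1.65, adjusted p = 0.00547) and HOXC13 (-1.23, adjusted p = 0.0319) were lower in 5637, and HOXC8 (-0.94, adjusted p = 0.301) was not called. CENPL (-0.02, adjusted p = 0.971), beside GAS5, and WARS (-0.08, adjusted p = 0.764), beside MEG3, were not called.

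For each tested RNA, the genes nearest in pattern were found by the root mean square difference between centred log2(FPKM + 0.5) profiles over the 6 libraries. Among the nearest to UCA1 were SLPI, a secreted protease inhibitor (0.302), and KRT5, a keratin of basal epithelial cells (0.33). SLPI had 0.0679, 0.0753 and 0.0731 FPKM in UM-UC-3, was listed at 0 in the library labelled 5637 sh-NC, and reached 94.1 and 259 FPKM in the 5637 hairpin libraries. NEAT1 was nearest to AMN1 (0.108), SOX12 (0.186) and PNRC1 (0.195), and MALAT1 to POC1B (0.112), ACTA2 (0.123) and AGA (0.126). GAS5 was nearest to PFDN2 (0.087), PPP1R15A (0.117) and MMP24-AS1 (0.139), and SNHG1 to WDR3 (0.081), NUP35 (0.088) and MED8 (0.091). PVT1 was nearest to AUTS2 (0.036), HMGN4 (0.048) and FAF1 (0.065). The profiles rest on 6 libraries, and nothing on shared function or control follows from them.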

How the data were processed

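RNA had been extracted with TRIzol from UM-UC-3 and 5637 cells and made into stranded mRNA libraries, 1 for each of 3 constructs in each line (6 in all). The authors deposited FPKM per gene on GRCh38, and the submitters' processing notes name HISAT2 and hg38, while versions, the counting program and the annotation are not given in the sources used here. Whether the counting used strand is not given either, so HOTAIR and other antisense genes may share reads with the opposite strand. Of 50869 rows, 1 without values was left out, and 50110 identifiers were found in GENCODE release 29.

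The depth of each library came from 14670 genes of 1 exon, in which at least 99.96% of values under 200 fragments were whole within 0.02 fragments. Intervals (95%) and floors of 3 fragments cover counting error only. No count test was run on FPKM. limma 3.58.1 (R 4.3.3, lmFit and eBayes with a trend) was fitted to log2(FPKM + 0.5) over all 12717 genes whose mean reached 1 FPKM, with Benjamini-Hochberg adjustment at 0.05. A model with 1 mean for each line and for knockdown or control gave the comparisons within lines and the difference between them (2 residual degrees of freedom). The comparison of lines was fitted to the 4 sh-LNMAT1 libraries alone, with 1 mean per line (2 residual degrees of freedom). The pooled comparison had the line as a covariate (3 residual degrees of freedom). Levels, profiles and sequences were handled in Python 3.11.15 (numpy 2.4.6, pandas 2.3.3). The fit was tested on simulated data. Sequences are the transcripts of GENCODE release 29.

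All 9 RNAs and the tested neighbours were named, and from each other list up to 4 genes with the largest difference between lines and up to 4 with the largest change in UM-UC-3, while NONO, SFPQ, SNHG9, SNHG16 and the cell type markers given by name were added after their values were seen to show a direction or a known role. For each tested RNA the 3 nearest genes were named. A neighbour, a nearest gene and a sequence that these rules take are not reported here. The RNAs and lists were chosen with earlier results of these data known. The alternatives were pseudocounts of 0.1 and 1, no filter, 75th-percentile scaling, no trend, no line covariate, the hairpin number as a block, other sets of libraries and leaving out each library. Samples with the same hairpin number shared only the construct (the deviations of the sh-LNMAT1#1 libraries from the line means correlated at 0.032 across genes).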

Additional observations from a re-analysis of the deposited data

Results flagged for a closer look

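The change with the hairpins differed between the libraries labelled UM-UC-3 and those labelled 5637 for 5 of the 6 tested RNAs, in a test of the difference itself (limma, line by knockdown), where 18.8% of all 12717 genes were called. The difference, 5637 minus UM-UC-3 on the log2 scale, was 8.39 for UCA1 (SE 0.44, adjusted p = 0.00285), -4.06 for NEAT1 (SE 0.49, adjusted p = 0.00652) and -3.17 for GAS5 (SE 0.40, adjusted p = 0.00742). It was -1.72 for PVT1 (adjusted p = 0.0316), -1.62 for SNHG1 (adjusted p = 0.0331) and -0.71 for MALAT1 (adjusted p = 0.479). NEAT1 and GAS5 were above their control in both UM-UC-3 hairpin libraries and below the labelled control in both of 5637. All 5 values rest on the library labelled 5637 sh-NC, which lay within the UM-UC-3 range for 5 of the 6 RNAs and within the range of the 5637 sh-LNMAT1 libraries for 0 of 6, and no fit without it gives this difference. Without 5637 sh-LNMAT1#1 the adjusted p was 0.0643 for GAS5, 0.218 for PVT1 and 0.183 for SNHG1, and without 5637 sh-LNMAT1#2 it was 0.0626, 0.227 and 0.15. Without UM-UC-3 sh-LNMAT1#2, MALAT1 was called (-1.27, adjusted p = 0.0377). With no filter on low genes, only UCA1 of the 5 was called, with NEAT1 at 0.0817, GAS5 at 0.0635, PVT1 at 0.0595 and SNHG1 at 0.0838.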

How the results depend on the processing

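With no filter on low genes, 154 genes were called in the pooled comparison, 1394 in UM-UC-3 and 2968 between the lines, in place of 0, 0 and 4776, over 50868 in place of 12717 genes tested. Leaving out each library in turn gave 0 to 3947 calls in the pooled comparison (3947 without UM-UC-3 sh-NC), 0 to 3 in UM-UC-3, 1076 to 5423 in 5637, 684 to 4028 for the difference between these changes and 1248 to 5165 between the lines, with the lowest counts where a 5637 sh-LNMAT1 library was left out. The control of a line cannot be left out of its own comparison. In the pooled comparison the same step moved UCA1 between -0.063 and 8.329, NEAT1 between -2.789 and 1.276, GAS5 between -2.374 and 0.801, PVT1 between -1.445 and 0.270 and MALAT1 between -0.073 and 0.640, and it turned the sign of the first 4 without the library labelled 5637 sh-NC and that of MALAT1 without UM-UC-3 sh-NC or without UM-UC-3 sh-LNMAT1#1 (-0.007). It also turned SNHG1 in UM-UC-3 (-0.174 to 0.043) and MALAT1 between the lines (-0.568 to 0.551, with 0.014 without 5637 sh-LNMAT1#2). The line term of all 6 libraries called 1 gene, with MALAT1 at 0.229 and UCA1 at 5.57 (adjusted p = 0.217). The causes were not tested. With the hairpin number as a replicate block, 5131 genes were called between the lines and no call of the 6 RNAs changed, and in the pooled comparison that block could not be fitted beside knockdown with 1 control per line. The line term of the 5 libraries without the one labelled 5637 sh-NC gave the same differences by construction, since the control left in it sets only the knockdown term. That fit is therefore no check on the calls between the lines. Depth limits UCA1 in 4 libraries, HOTAIR and MEG3.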
